A study of Homo sapiens with 4 samples.

Results

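The DNA replication origin and fork genes are 54 genes that build, fire and drive the replication fork, taken by gene name from the 58302 genes of the files, and all 54 were found once each. They were sorted by role into origin licensing (9 genes), the CMG helicase and origin firing (14), fork protection and chromatin assembly (3), the sliding clamp and its loader (6), polymerases and primase (10), RPA and lagging strand processing (8) and nucleotide supply (4). Their mRNA was measured in HepG2, a human hepatocellular carcinoma cell line, in 4 libraries of polyadenylated RNA. The cells were wild-type only in the sense that no engineered change is named for them. The groups were DMSO, the solvent control, for 24 h, melatonin at 1 mM for 24 h, DMSO for 48 h and melatonin at 1 mM for 48 h, and each group is 1 library of 1 culture. No difference between libraries could therefore be set against a spread between cultures, and no p-value for melatonin or for time was computed.

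Before a cell copies its genome, the origin recognition complex (ORC) binds replication origins and, with CDC6 and CDT1, loads the MCM helicase on DNA, a step called licensing. The kinase CDC7 with its activator DBF4 then fires the origin, CDC45 and the GINS complex join MCM to form the active CMG helicase, and polymerases follow it along the unwound strands, tethered by the PCNA ring. Many of these genes are known targets of the E2F transcription factors and are transcribed in proliferating cells as they pass from G1 into S phase, so that in a bulk culture their mRNA also depends on how many cells are cycling. In bulk RNA, fewer expressing cells and less mRNA in each cell cannot be told apart.

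E2F factors bind a short GC-rich word near the start of their targets, so the promoters were searched for it. The words TTTCCCGC, TTTCGCGC, TTTGGCGC and TTTGCCGC were looked for on both strands in RefSeq windows from 250 bases before to 50 bases after the gene start (build GRCh38.p14). Of the 54 genes 47 matched a window, and 20 of the 47 (42.6%) held at least 1 word. The same words were found for 3.99% of all 27305 genes with a window and for 6.76% of the 8789 such genes that reached an FPKM of 1 in a library. The genes ORC3, CDC6, CDT1, GMNN, MCM2, MCM3, MCM6, MCM7, GINS1, GINS2, GINS3, CDC7, PCNA, RFC3, POLA1, POLA2, POLE, POLE2, LIG1 and TYMS held a word, and MCM4, MCM5, GINS4, POLD3, RPA2, RPA3 and DNA2 had no window. The general promoter word CCAAT, whose end letters can overlap those of an E2F word, was found in 28 of the 47 (59.6%) and in 39.7% of all genes, and TTTGAA, a word of genes expressed late in the cell cycle, in 2 of the 47 (4.26%) and in 18.2%. Among the genes that reached an FPKM of 1 these shares were 43.3% for CCAAT and 13.4% for TTTGAA. Below are the 200 bases before the RefSeq start of 4 genes with an E2F word and of 2 without, TIMELESS and ORC2. These starts can differ from the deposited gene bounds given further on. The stretch of GINS2 lies inside those bounds, and that of RFC3 runs into them. For melatonin over DMSO at 48 h, TIMELESS rose and ORC2 was lower. Capitals mark the words, and in MCM6 each capital stretch is a pair of words that overlap on opposite strands.
RFC3 (chr13:33817949-33818148, forward strand): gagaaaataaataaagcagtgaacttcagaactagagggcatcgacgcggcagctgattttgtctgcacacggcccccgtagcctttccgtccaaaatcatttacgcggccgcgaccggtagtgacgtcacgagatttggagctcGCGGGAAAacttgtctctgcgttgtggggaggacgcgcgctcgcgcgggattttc
GINS2 (chr16:85688955-85689154, reverse strand): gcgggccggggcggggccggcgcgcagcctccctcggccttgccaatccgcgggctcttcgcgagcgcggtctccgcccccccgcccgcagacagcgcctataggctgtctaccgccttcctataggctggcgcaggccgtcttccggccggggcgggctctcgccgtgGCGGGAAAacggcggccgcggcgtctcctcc
MCM6 (chr2:135876444-135876643, reverse strand): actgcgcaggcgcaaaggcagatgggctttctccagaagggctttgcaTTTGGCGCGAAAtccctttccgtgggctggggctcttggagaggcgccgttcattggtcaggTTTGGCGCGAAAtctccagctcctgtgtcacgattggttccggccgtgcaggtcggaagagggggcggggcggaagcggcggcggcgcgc
PCNA (chr20:5126623-5126822, reverse strand): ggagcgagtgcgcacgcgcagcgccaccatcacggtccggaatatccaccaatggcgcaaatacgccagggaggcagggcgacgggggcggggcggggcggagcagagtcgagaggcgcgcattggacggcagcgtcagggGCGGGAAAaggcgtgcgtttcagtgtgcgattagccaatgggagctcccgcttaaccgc
TIMELESS (chr12:56449427-56449626, reverse strand): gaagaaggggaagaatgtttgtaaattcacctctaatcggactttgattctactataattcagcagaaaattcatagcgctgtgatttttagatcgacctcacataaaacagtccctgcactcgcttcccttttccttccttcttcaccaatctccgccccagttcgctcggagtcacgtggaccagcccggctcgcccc
ORC2 (chr2:200963661-200963860, reverse strand): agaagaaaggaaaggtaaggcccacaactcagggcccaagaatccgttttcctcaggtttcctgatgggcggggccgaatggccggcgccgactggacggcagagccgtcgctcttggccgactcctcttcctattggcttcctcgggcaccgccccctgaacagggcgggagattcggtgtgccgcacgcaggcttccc
RFC3, GINS2 and PCNA each hold 1 word in these bases and MCM6 holds 4. A match is a description of the letters and does not show that a factor binds there. The lack of these exact words in the window does not show that a gene is no E2F target. Where a gene had several windows a word in any of them counted, and 11 of the 47 genes had several. At 48 h the 20 genes with a word had a median of 0.72 on the log2 scale between melatonin and DMSO (range 0.15 to 1.35, 20 of 20 above 0), and the 27 without had one of 0.57 (range -0.41 to 1.22, 23 of 27 above 0), where 47.5% of all genes tested were above 0. At 24 h the order was the other way, with medians of 0.01 (11 of 20 above 0) and 0.15 (20 of 27), and for 48 h over 24 h with DMSO both medians were -0.94.

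Levels are in FPKM, which counts fragments relative to the length of a gene and the size of a library, and the reads behind the deposited values were recovered from their steps. Levels compared between genes rest on the deposited gene lengths. Whether these are the lengths of the transcripts expressed here is not given in the sources used here. The reads on genes came to between 21616676 and 23086025 per library, and a member had between 60 (POLD4) and 5679 (MCM7) reads in a library. Fold changes are log2 of FPKM + 1 over FPKM + 1, which understates the change of low genes, and ratios are plain FPKM ratios with a 95% Clopper-Pearson interval of the reads, which covers counting error between these libraries only. Comparisons took in genes that reached an FPKM of 1 in at least 1 of the libraries compared, as all 54 did each time, and the words rose and fell are kept for changes of 2-fold or more on that scale. Each of 11 hepatocyte markers reached an FPKM of 1 in every library. The summed FPKM of 6 fibroblast markers was between 0.804 and 4.33, of which PDGFRB made up 0.774 to 4.33, with COL1A2, COL3A1 and DCN at 0 throughout. That of 4 endothelial markers was between 0.543 and 1.18, with KDR at 0. That of 5 leukocyte markers was between 731 and 1069, of which LYZ made up 729 to 1069, while CD3E was at 0 and PTPRC at most at 0.00589.

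With melatonin for 48 h, 50 of the 54 genes were higher than with DMSO for 48 h, and the median log2 fold change was 0.71. Among all 13805 genes tested, 47.5% were above 0 and the median was -0.02. For 49 of the 54 the counting interval of the ratio lay above 1, which it did for 29.1% of all genes tested, and for 3 it lay below 1, as for 33.1%. CDC6, GINS2, TIMELESS, RFC3 and TK1 rose at least 2-fold, where 2.39% of all genes did, and none of the 54 fell, where 3.32% did. At a threshold of 1.5-fold the count was 34 of 54, against 8.62% of all genes. The 4 genes on the other side of 0 were ORC2, ORC4, POLD4 and RNASEH1. At 24 h the picture was flat, with 36 of 54 genes above 0, where 53.5% of all genes tested were, a median of 0.09 against 0.02, and no gene past the 2-fold threshold in either direction, where 1.42% of all genes rose and 2.93% fell. The interval lay above 1 for 19 genes and below 1 for 5, against 28.2% and 22.4% of all genes. Scaled to TPM, 50 of the 54 were above 0 at 24 h, and so were 68.4% of all genes, so that the side of 0 of a small difference at 24 h depends on the scaling.

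In FPKM the DMSO library of 48 h was the low one. It held the lowest of the 4 levels for 50 of the 54 genes, which was so for 31.0% of the 14612 genes that reached an FPKM of 1 anywhere. In 40 of the 54 genes the level with DMSO at 48 h was below that with melatonin at 48 h, which in turn was below both libraries of 24 h, an order found for 16.2% of those genes. From 24 h to 48 h with DMSO, 51 of 54 genes had lower levels, with a median of -0.95, and 23 fell at least 2-fold, where 49.7% of all genes tested were below 0 and 4.24% fell. None rose, where 3.50% of all genes did, and the interval lay below 1 for 50 and above 1 for 3, against 32.1% and 32.5%. From 24 h to 48 h with melatonin, 51 of 54 were again lower, but with a median of -0.39 and none past the threshold, where 54.9% of all genes were below 0, 1.71% fell and 2.45% rose. The interval lay below 1 for 45 and above 1 for 0, against 32.8% and 22.4%. These comparisons share libraries with each other and with those of melatonin over DMSO, so they are not separate evidence. As a plain FPKM ratio the median member stood at 0.467 of its 24 h level after 48 h with DMSO and at 0.723 after 48 h with melatonin, and with melatonin at 48 h it stood at 0.804 of the DMSO level of 24 h. Levels compared between times depend on the scaling. The FPKM of all genes summed to 479234 and 424724 at 24 h and to 337663 and 350770 at 48 h with DMSO and melatonin. Scaling to TPM therefore raises the levels of 48 h against those of 24 h. With TPM, 8 of the 54 genes were higher at 48 h than at 24 h with DMSO, where 78.3% of all genes tested were. For these 8 the DMSO level of 48 h was therefore not the lowest. With melatonin 17 of the 54 were higher at 48 h, against 73.2% of all genes, so the order did not hold for these 17. The counts of 50 and 40, the shares of all genes beside them and the 0.804 depend on the scaling. They were not computed again with TPM.

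**Figure D1:**
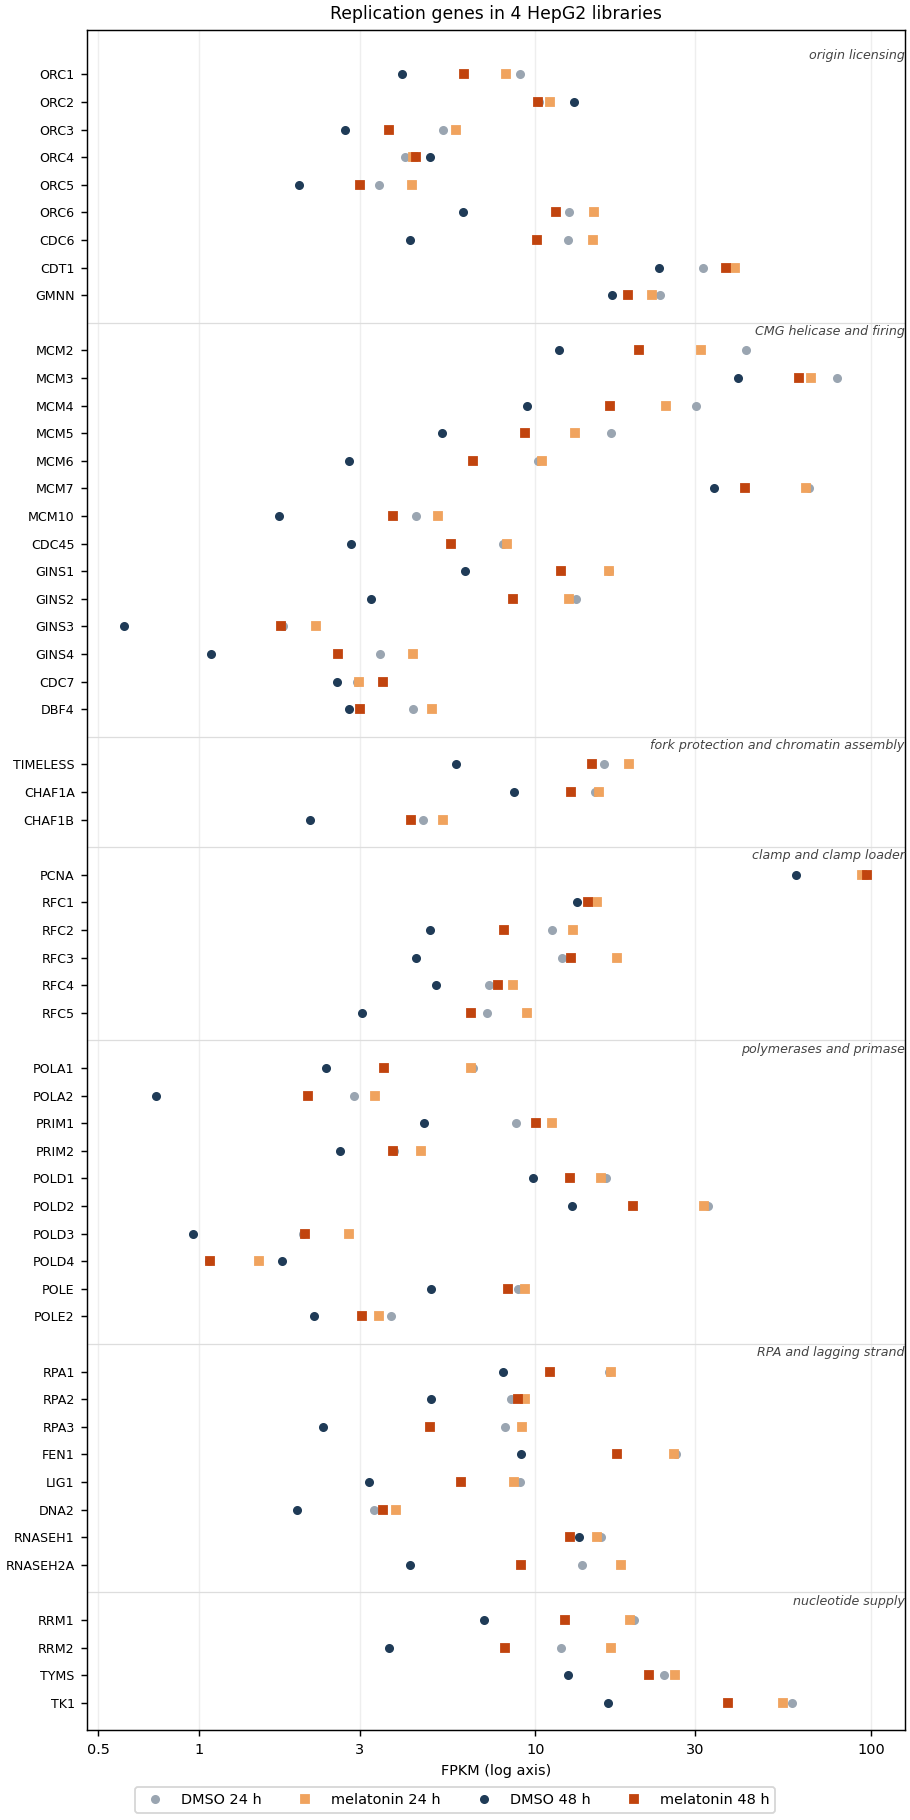
FPKM (log axis) of the 54 replication genes in the 4 HepG2 libraries, ordered by role, with circles for DMSO and squares for melatonin and 1 point per library. The dark circle of DMSO at 48 h is the leftmost point for 50 of the 54 genes, and ORC2, ORC4, POLD4 and RNASEH1 are the exceptions.

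**Figure D2:**
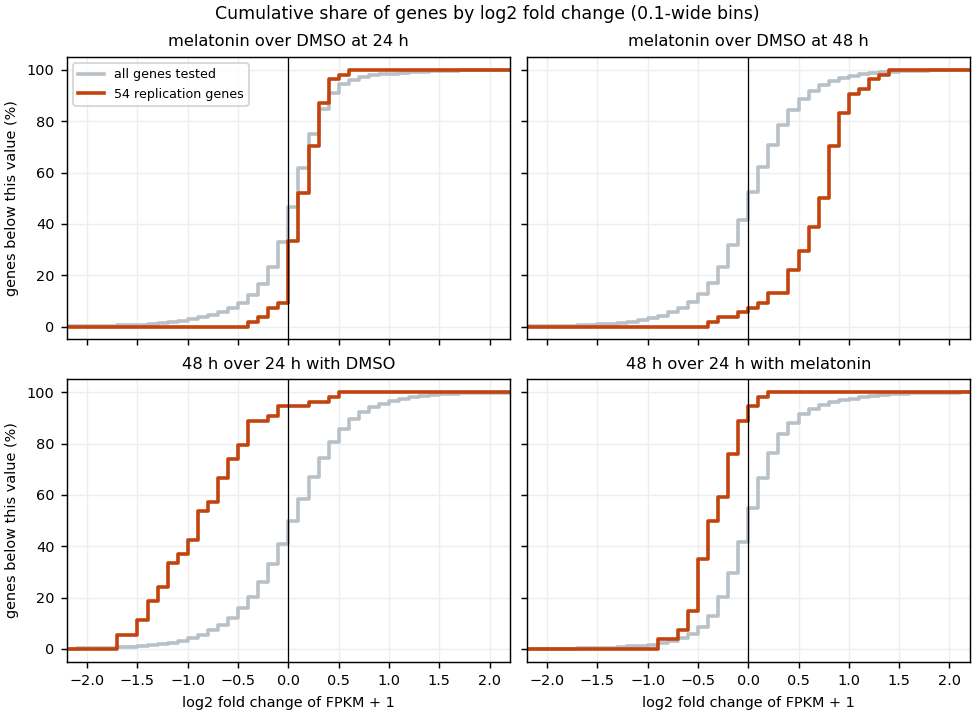
Cumulative share of genes (percent) by log2 fold change of FPKM + 1 for the 4 comparisons, with the 54 replication genes in red and all genes tested in grey. The curves lie close together for melatonin over DMSO at 24 h, and the replication genes lie to the right at 48 h and to the left for 48 h over 24 h with either treatment.

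Origin licensing was the role with the lowest median at 48 h, 0.42, and the genes differed from each other. Of its 9 genes 7 were higher with melatonin, where 47.5% of all genes tested were. CDC6, the ATPase that loads MCM onto ORC-bound origins (chromosome 17 from 40287633 to 40304657 on hg38), had an FPKM at 24 h of 12.5 (DMSO) and 14.9 (melatonin) and at 48 h of 4.23 and 10.1. The DMSO level of 48 h is the low one of the 4, and the ratio at 48 h was 2.39 (interval 2.14 to 2.66). CDT1, its partner in MCM loading, had an FPKM of 31.6, 39.3, 23.4 and 36.9 in the same order of libraries, and was higher with melatonin at both times, by 1.25-fold (1.17 to 1.32) and 1.58-fold (1.48 to 1.68). GMNN encodes geminin, the protein that binds CDT1 and blocks a further round of licensing, and had an FPKM of 23.5, 22.3, 16.9 and 18.9. Its ratio was 0.947 (0.870 to 1.03) at 24 h and 1.12 (1.02 to 1.22) at 48 h, so that the ratio of CDT1 to GMNN in FPKM was 1.34 (24 h) and 1.38 (48 h) with DMSO, and 1.76 and 1.95 with melatonin.

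The 6 ORC subunits did not move as a block. ORC1, the ATPase subunit whose level is known to be tied to the cell cycle, had an FPKM of 8.99, 8.20, 4.02 and 6.13 in that order of libraries. ORC6, a smaller subunit also used in cell division, had an FPKM of 12.6, 15.0, 6.11 and 11.5. Both had their lowest level with DMSO at 48 h, and their ratios at 48 h were 1.53 (1.31 to 1.78) and 1.89 (1.70 to 2.09). ORC3 and ORC5, core subunits, were higher with melatonin at 48 h by 1.35-fold (1.13 to 1.61) and 1.51-fold (1.24 to 1.85). ORC2, a core subunit, had an FPKM of 10.2, 11.0, 13.0 and 10.2, highest with DMSO at 48 h, with a ratio at 48 h of 0.780 (0.725 to 0.839). ORC4, an ATPase-fold subunit, had an FPKM of 4.10, 4.31, 4.85 and 4.42, with a ratio at 48 h of 0.910 (0.829 to 0.998). As a share of the summed FPKM of the complex, ORC2 went from 22.9% with DMSO at 24 h to 39.8% with DMSO at 48 h, and was 26.1% with melatonin at 48 h, while ORC6 went from 28.3% to 18.7% and was 29.6%.

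All 14 genes of the helicase and of firing were above 0 at 48 h, with a median of 0.77, and for 13 the interval lay above 1. Of all genes tested 47.5% were above 0, and 29.1% had an interval above 1. MCM2 to MCM7 form the ring that unwinds DNA. MCM2 (chromosome 3 from 127598223 to 127622436) had an FPKM at 24 h of 42.4 (DMSO) and 31.2 (melatonin) and at 48 h of 11.8 and 20.4. MCM3 had an FPKM of 79.3, 66.3, 40.3 and 60.9, and MCM4 of 30.1, 24.6, 9.47 and 16.7. MCM5 had an FPKM of 16.9, 13.1, 5.26 and 9.33. In these 4 subunits melatonin was on opposite sides of DMSO at the 2 times, with ratios at 24 h of 0.736 (0.702 to 0.772) for MCM2, 0.836 (0.804 to 0.869) for MCM3, 0.816 (0.779 to 0.855) for MCM4 and 0.780 (0.733 to 0.828) for MCM5, and below 0 on the log2 scale at 24 h under each scaling tried. At 48 h their ratios were 1.73 (1.62 to 1.86), 1.51 (1.45 to 1.58), 1.76 (1.65 to 1.88) and 1.77 (1.63 to 1.93). Across the 54 genes, 17 were below 0 at 24 h and above 0 at 48 h, where 14.4% of those 14612 genes were. This count depends on the scaling, since with TPM it was 4 of 54, which were MCM2, MCM3, MCM4 and MCM5, against 8.17% of all genes tested at both times, and with plain sums of reads it was 9, against 11.4%.

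The remaining MCM subunits differed from these 4 at 24 h. MCM6 had an FPKM of 10.2, 10.5, 2.79 and 6.54, with a ratio of 1.03 (0.930 to 1.13) at 24 h and of 2.34 (2.02 to 2.73) at 48 h. MCM7, which shares its primary transcript with a cluster of microRNAs, had an FPKM of 65.2, 63.8, 34.0 and 42.3, with ratios of 0.980 (0.944 to 1.02) and 1.24 (1.19 to 1.30). The interval of MCM7 at 48 h lies below those of the other 5 subunits, and the interval of MCM6 lies above them. Since the ring holds the subunits in equal numbers, their mRNA levels per length are of interest, and the highest subunit over the lowest was 7.76 (DMSO) and 6.33 (melatonin) at 24 h, and 14.4 and 9.31 at 48 h. MCM3 was the highest and MCM6 the lowest in each library, as far as the deposited gene lengths hold. The summed FPKM of the 6 genes was 244 and 209.5 at 24 h and 103.5 and 156 at 48 h with DMSO and melatonin.

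**Figure D3:**
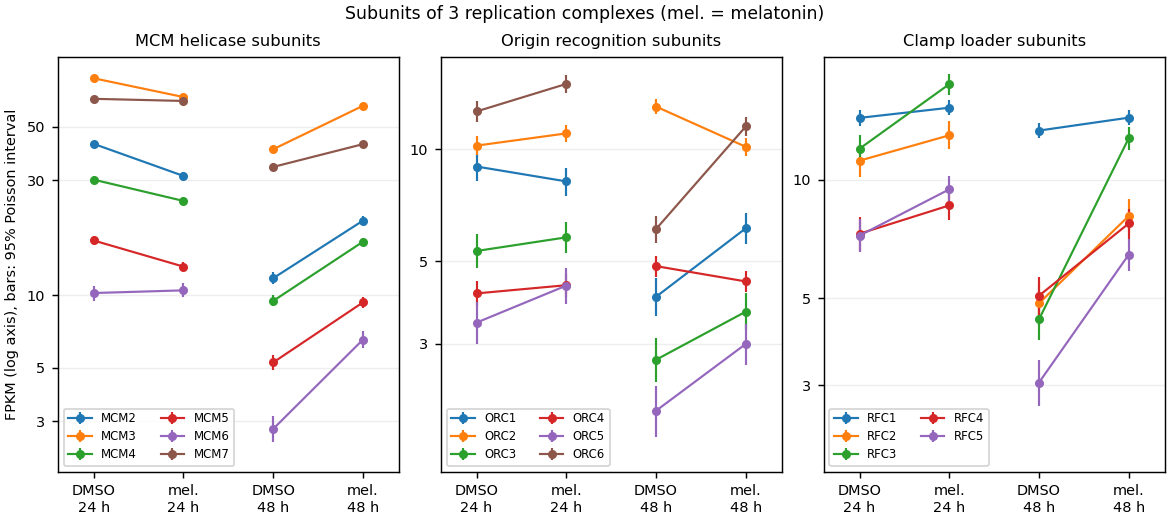
FPKM (log axis) of the subunits of the MCM helicase, the origin recognition complex and the clamp loader in the 4 libraries, with lines joining DMSO and melatonin of the same time and bars for the 95% exact Poisson interval of the reads. MCM2, MCM3, MCM4 and MCM5 slope down at 24 h and up at 48 h, ORC2 and ORC4 are higher with DMSO at 48 h than at 24 h, and RFC1 is at 14.4 and 13.3 with DMSO at 24 h and 48 h.

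CDC45 and the GINS subunits complete the CMG helicase, and all 5 were lowest with DMSO at 48 h, as were 31.0% of genes that reached an FPKM of 1. GINS2 (chromosome 16 from 85676198 to 85690073) had an FPKM at 24 h of 13.3 (DMSO) and 12.6 (melatonin) and at 48 h of 3.24 and 8.58, and its ratio at 48 h was 2.65 (2.27 to 3.09). GINS1 had an FPKM of 16.6, 16.6, 6.19 and 11.9, and CDC45 of 8.04, 8.23, 2.84 and 5.62. GINS3 and GINS4 had low levels, of 0.598 and 1.08 with DMSO at 48 h and of 1.76 and 2.58 with melatonin, and so large plain ratios at 48 h of 2.93 (2.21 to 3.93) and 2.39 (1.94 to 2.95), although neither passed the threshold on the scale of FPKM + 1. At 24 h the ratios of CDC45, GINS1 and GINS2 had intervals that held 1, and those of GINS3 and GINS4 were 1.25 (1.02 to 1.54) and 1.26 (1.09 to 1.45). MCM10, which helps CMG to start unwinding, had an FPKM of 4.41, 5.14, 1.72 and 3.77, a ratio at 48 h of 2.19 (1.85 to 2.59).

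In FPKM both subunits of the kinase that fires origins were also lowest with DMSO at 48 h, as were 31.0% of genes that reached an FPKM of 1. For CDC7 the difference from DMSO at 24 h was within counting error, and for DBF4 that from melatonin at 48 h was. Ranks between times depend on the scaling. CDC7, the catalytic subunit, had an FPKM of 2.96, 2.99, 2.58 and 3.53, with a ratio for melatonin over DMSO of 1.37 (1.14 to 1.65) at 48 h and one for 48 h over 24 h with DMSO of 0.872 (0.712 to 1.07). DBF4, its activating subunit, had an FPKM of 4.34, 4.94, 2.79 and 3.01, and its ratio for melatonin over DMSO was 1.14 (0.990 to 1.31) at 24 h and 1.08 (0.915 to 1.27) at 48 h. Its ratio for 48 h over 24 h with DMSO was 0.642 (0.548 to 0.752). At 48 h no difference between melatonin and DMSO in DBF4 beyond counting error was detectable at this depth, from 280 and 306 reads.

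TIMELESS, a subunit of the fork protection complex that couples the helicase to the polymerases (chromosome 12 from 56416373 to 56449403), had an FPKM at 24 h of 16.1 (DMSO) and 19.0 (melatonin) and at 48 h of 5.79 and 14.8. The ratio was 1.18 (1.11 to 1.26) at 24 h and 2.56 (2.35 to 2.79) at 48 h. CHAF1A and CHAF1B are subunits of the chaperone that places new histones behind the fork. CHAF1A had an FPKM of 15.1, 15.5, 8.67 and 12.7, and CHAF1B of 4.62, 5.30, 2.14 and 4.26, with ratios at 48 h of 1.47 (1.34 to 1.61) and 1.99 (1.70 to 2.33). All 3 genes were above 0 at both times, where 53.5% (24 h) and 47.5% (48 h) of all genes tested were, and CHAF1A at 24 h had an interval that held 1.

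PCNA, the ring that holds polymerases on DNA, was the most abundant of the 54 in each of the 4 libraries, with an FPKM of 96.3, 93.8, 59.8 and 97.5. In FPKM only the DMSO library of 48 h was low, and melatonin at 48 h stood at 1.01 of the DMSO level of 24 h. That ratio between times depends on the scaling. The ratio for melatonin over DMSO was 0.974 (0.923 to 1.03) at 24 h and 1.63 (1.54 to 1.73) at 48 h. Replication factor C opens the PCNA ring and closes it around DNA. RFC3 (chromosome 13 from 33818049 to 33966558) had the highest log2 fold change of the 54 at both times, 0.51 and 1.35, with an FPKM of 12.0, 17.5, 4.41 and 12.8. RFC5 had an FPKM of 7.21, 9.45, 3.05 and 6.45, with ratios of 1.31 (1.16 to 1.49) and 2.12 (1.80 to 2.50).

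The largest subunit, RFC1, was nearly level, with an FPKM of 14.4, 15.3, 13.3 and 14.4 and ratios for melatonin over DMSO of 1.06 (0.996 to 1.13) and 1.08 (1.01 to 1.15). RFC2 and RFC4 lay between, with ratios of 1.67 (1.42 to 1.97) and 1.53 (1.33 to 1.76) at 48 h. RFC1 made up 27.6% and 23.9% of the summed FPKM of the 5 subunits with DMSO and melatonin at 24 h and 43.4% and 29.1% at 48 h, while RFC3 made up 23.0% and 27.5% at 24 h and 14.4% and 25.8% at 48 h. The 5 subunits were within 1.99-fold of each other with DMSO at 24 h and within 4.38-fold with DMSO at 48 h.

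Of the 10 polymerase and primase genes 9 were above 0 at 48 h, where 47.5% of all genes tested were. Their median was 0.49, and none passed the threshold, where 2.39% of all genes rose and 3.32% fell. Polymerase alpha and primase lay the RNA-DNA primers. POLA1, the catalytic subunit of polymerase alpha, had an FPKM of 6.52, 6.43, 2.39 and 3.54, and with melatonin at 48 h it stood at 0.543 of the DMSO level of 24 h. PRIM1, the catalytic subunit of primase, had an FPKM of 8.78, 11.2, 4.66 and 10.0, and with melatonin at 48 h it stood at 1.14 of its DMSO level of 24 h. Both of these ratios between times depend on the scaling. The ratios of POLA1 and PRIM1 for melatonin over DMSO at 48 h were 1.48 (1.29 to 1.71) and 2.15 (1.85 to 2.51). POLA2, the regulatory subunit, had an FPKM of 2.89, 3.32, 0.741 and 2.1, a ratio at 48 h of 2.84 (2.23 to 3.63) from 93 and 267 reads, and PRIM2 had a ratio of 1.44 (1.23 to 1.69).

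Polymerases epsilon and delta copy the leading and the lagging strand. POLE, the catalytic subunit of epsilon, had an FPKM of 8.86, 9.30, 4.88 and 8.29, with ratios of 1.05 (0.997 to 1.11) at 24 h and 1.70 (1.6 to 1.8) at 48 h, and its partner POLE2 had 0.923 (0.756 to 1.13) and 1.39 (1.12 to 1.74). Of the delta subunits, the catalytic POLD1 and the accessory POLD2 had ratios at 48 h of 1.29 (1.19 to 1.40) and 1.52 (1.40 to 1.64), and POLD3 of 2.15 (1.72 to 2.71). POLD4, the smallest subunit, went the other way with an FPKM of 1.07, 1.5, 1.76 and 1.08, highest with DMSO at 48 h, and a ratio at 48 h of 0.611 (0.450 to 0.825). It rests on 60, 93, 118 and 73 reads, the fewest of the 54 in each library but that of DMSO at 48 h.

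RPA coats the unwound strands. RPA1 had an FPKM of 16.6, 16.8, 8.0 and 11.0, and RPA2 and RPA3 had ratios for melatonin over DMSO at 48 h of 1.82 (1.54 to 2.15) and 2.09 (1.73 to 2.53), above the 1.38 (1.27 to 1.5) of RPA1. FEN1, the nuclease that trims the flaps of Okazaki fragments, had an FPKM of 26.2, 25.8, 9.05 and 17.5. LIG1, the ligase that joins those fragments, had an FPKM of 9.0, 8.63, 3.19 and 5.99. FEN1 and LIG1 had ratios of 1.94 (1.74 to 2.16) and 1.88 (1.68 to 2.11) at 48 h and intervals that held 1 at 24 h. The nuclease and helicase DNA2 had a ratio at 48 h of 1.8 (1.52 to 2.15). The enzymes that remove RNA from DNA split, since RNASEH2A, the catalytic subunit of RNase H2, had an FPKM of 13.8, 18.0, 4.25 and 9.06, and RNASEH1 of 15.7, 15.2, 13.5 and 12.7. RNASEH2A had a ratio at 48 h of 2.13 (1.81 to 2.51), and RNASEH1 one of 0.943 (0.856 to 1.04), with all 4 levels of RNASEH1 close together.

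The 4 genes of nucleotide supply had the highest median of the 7 roles at 48 h, 0.86. For 4 of 4 the counting interval of the ratio lay above 1, as for 29.1% of all genes tested. Ribonucleotide reductase makes deoxyribonucleotides, with RRM1 as its large and RRM2 as its small, cell-cycle-regulated subunit. RRM1 had an FPKM of 19.7, 19.2, 7.05 and 12.3. RRM2 had an FPKM of 11.9, 16.8, 3.67 and 8.11, higher with melatonin at both times by 1.41-fold (1.31 to 1.52) and 2.21-fold (1.97 to 2.48). The ratio of RRM2 to RRM1 in FPKM was 0.606 and 0.875 with DMSO and melatonin at 24 h and 0.521 and 0.661 at 48 h. TK1, the cytosolic thymidine kinase of S phase (chromosome 17 from 78174075 to 78187233), had an FPKM of 58.3, 54.5, 16.5 and 37.4, with ratios of 0.936 (0.879 to 0.995) and 2.27 (2.07 to 2.49), of which the first turned to the other side of DMSO when scaled to TPM. TYMS, which makes thymidylate, had an FPKM of 24.1, 26.1, 12.5 and 21.8, with ratios of 1.08 (0.996 to 1.17) and 1.74 (1.58 to 1.92).

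**Figure D4:**
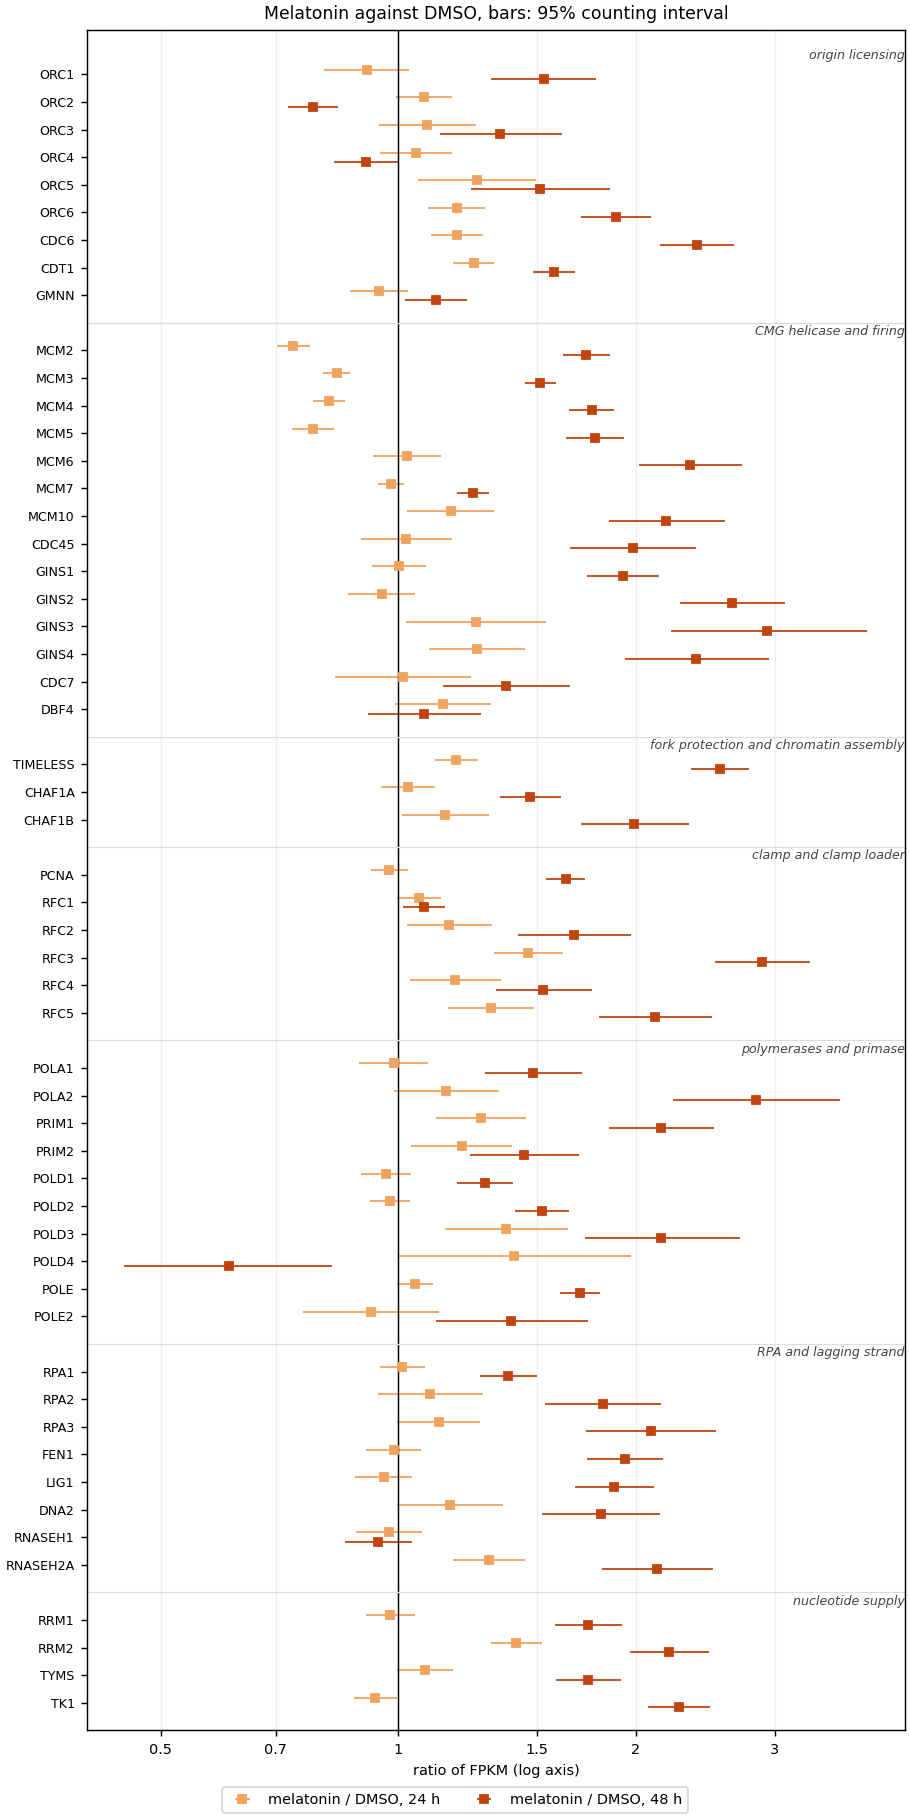
Ratio of FPKM (log axis) of melatonin over DMSO at 24 h and 48 h for the 54 genes by role, 1 library per condition, with bars for the 95% counting interval of the ratio. At 48 h 49 intervals lie above 1, 3 lie below 1 (ORC2, ORC4 and POLD4) and 2 hold 1 (DBF4 and RNASEH1), and at 24 h 19 lie above, 5 below and 30 hold 1.

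Other genes of DNA replication and of the cell cycle, from lists written by role, had medians below 0 for 48 h over 24 h with DMSO too. Of 36 other replication factors, 35 were tested at 48 h, 28 were above 0 for melatonin over DMSO, 4 rose and none fell, with a median of 0.40. Of all genes tested in that comparison, 47.5% were above 0, 2.39% rose and 3.32% fell, with a median of -0.02. ASF1B, a histone chaperone, had an FPKM at 48 h of 2.71 with DMSO and 9.77 with melatonin. DTL, which targets CDT1 for destruction, had 1.88 and 5.29. DSCC1, a subunit of an alternative clamp loader, had 2.05 and 5.42, and CLSPN, the checkpoint adaptor claspin, had 1.76 and 4.74. Of 27 other nucleotide supply genes 14 were above 0, close to the share of all genes, with a median of 0.10 and none past the threshold. Of 28 mitosis genes 23 were above 0 with a median of 0.43 and none past the threshold, and PLK1, AURKA, CDC20, KIF20A and ECT2 were below 0. Of 24 homologous recombination genes tested 23 were above 0 with a median of 0.67, and EME1 and BRCA1 rose. From 24 h to 48 h with DMSO the medians of these lists were -0.66, -0.35, -1.01 and -0.78, and at 24 h for melatonin over DMSO they were 0.05, -0.02, -0.09 and 0.26. Differences between the lists were not tested.

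Some of the 54 values share reads or scale with other features. TYMS shares 39.9% of its exon bases in GENCODE 44 with ENOSF1 on the opposite strand, which had between 761 and 995 reads, and whether the counting used strand is not given in the sources used here, so the level of TYMS is uncertain, and it shares 7.97% with TYMSOS, which had 80 to 189 reads. RNASEH2A shares 53.3% of its exon bases with THSD8 and POLD4 shares 21.3% with an unnamed gene, both on the same strand and at 0 reads in each library. GINS4 shares 21.0% with an unnamed gene on the opposite strand that had at most 5. Some smaller overlaps are with genes of many reads. PRIM1 shares 4.20% with NACA (4169 to 6562 reads) and FEN1 2.23% with FADS2 (473 to 1938), both on the same strand. GINS1 shares 3.23% with NINL (1968 to 3408) on the opposite strand. How shared reads were assigned is not given in the sources used here. Processed copies of RRM2, TYMS, RFC3, RFC5, FEN1, POLD2, PCNA and RPA2 that carry their names were at 0 reads in each library, and that of DBF4 had at most 5. Genes of the mitochondrial genome took 20.0% and 16.6% of the reads at 24 h and 9.77% and 11.9% at 48 h with DMSO and melatonin. With library sizes without the mitochondrial genes, the median of the 54 was 0.78 at 48 h and -0.96 for 48 h over 24 h with DMSO. The medians of all genes tested were then 0.037 and -0.0039. Beyond this rescaling, the part of the mitochondrial share in the results was not tested. Rescaled to TPM, the median of all genes for 48 h over 24 h moved to 0.46 with DMSO and 0.23 with melatonin, and that of the 54 was -0.53 and -0.17. Among all genes past the 2-fold threshold, TPM moved the share that were higher from 32.7% to 45.8% for melatonin over DMSO at 24 h, from 45.2% to 80.7% for time with DMSO (61.8% with plain sums of reads) and from 58.9% to 72.9% for time with melatonin.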

How the data were processed

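HepG2 cells were treated with 1 mM melatonin or DMSO, and 1 library per condition was sequenced. The authors mapped paired-end reads of polyadenylated RNA to hg38. The paper's methods name MapSplice 2.0.1.6 and Cufflinks, and the submitters' processing notes name Bowtie2 2.0.6, TopHat2 2.0.9, Cufflinks 2.1.1 and Cuffdiff 2.1.1. The authors deposited FPKM per Ensembl gene beside a gene length, with no read counts.

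The reads were recovered as the whole number of equal steps that FPKM and length give in a library, which held for 100% of the values above 0 (within 0.01 reads or the rounding of the value). The FPKM imply library sizes of 0.849 to 0.973 of the reads on genes, and how they were set is not given in the sources used here. The limit of 3 reads for a gene of 1 kb was an FPKM of 0.135 to 0.163. Fold changes used a pseudocount of 1, a gene entered a comparison at an FPKM of 1 or more in 1 of its libraries, and 2-fold counted as a change. Intervals are 95% exact Poisson (levels) and Clopper-Pearson (ratios) intervals of the reads, which are not known to be independent molecules and cover counting error only. The recovery and intervals were run on simulated data drawn from the counting model that they assume. That run checks the calculation only and could not show spread beyond counting error.

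The members and lists were chosen with earlier results of these data known. All 54 members are named. Values in each library are given for those past the threshold, for those whose ratios at 24 h and 48 h lay on opposite sides of 1 with both counting intervals off 1, and for well-known members of each role, and for some more chosen after their values were seen. Other lists are given by counts, with up to 5 genes named by size at 48 h. The 5 mitosis genes below 0 were named after their values were seen. Alternatives were pseudocounts of 0.1 and none, no minimum FPKM and one of 5, a 1.5-fold threshold, TPM, centring on the median, plain sums of reads, and leaving out mitochondrial genes. Python 3.11, numpy 2.4.6, pandas 2.3.3, scipy 1.17.1 and matplotlib 3.10.9 were used, with exons from GENCODE 44.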

Additional observations from a re-analysis of the deposited data

Results flagged for a closer look

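In 6 genes melatonin lay on opposite sides of DMSO at 24 h and 48 h with both counting intervals off 1. The difference between the times was not tested, since each time has 1 library per condition. MCM2, MCM3, MCM4 and MCM5, subunits of the helicase ring, had log2 fold changes of -0.43, -0.26, -0.28 and -0.34 at 24 h and of 0.74, 0.59, 0.75 and 0.72 at 48 h. Their values at 24 h stayed below 0 under the 9 settings run for them, from -0.45 (MCM2, centred on the median of all genes) to -0.08 (MCM3, TPM). TK1 had -0.094 at 24 h and 1.13 at 48 h, and its value of 24 h was 0.08 with TPM. POLD4 had 0.27 at 24 h and -0.41 at 48 h.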

How the results depend on the processing

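No paired analysis was possible because each condition has 1 library, and for the same reason no library could be left out. At 48 h all 54 genes kept their sign for melatonin over DMSO under every setting run that included them, and the median of the 54 ran from 0.71 to 0.80. At 24 h 37 kept their sign and 17 changed it, the median ran from 0.04 (minimum FPKM of 5) to 0.26 (TPM), and the genes above 0 ran from 25 of the 42 that reach that minimum (55.6% of all genes) to 50 of 54 with TPM (68.4%). The count of genes at least 2-fold higher at 48 h was 5, and 16 with a pseudocount of 0.1 (5.48% of all genes), 16 with plain ratios (5.16%), 10 with TPM (5.95%), 9 without mitochondrial genes (2.89%) and 34 at 1.5-fold (8.62%). For 48 h over 24 h with DMSO, 23 genes fell, 12 with TPM (3.91%) and 40 at 1.5-fold (12.6%), and the median was -1.10 with plain ratios and -0.53 with TPM. The genes above 0 there numbered 1 of 40 with a minimum FPKM of 5 (49.4%) and 8 of 54 with TPM (78.3%). With melatonin over time, 0 genes fell, 1 with a pseudocount of 0.1 (3.34%), 1 with plain ratios (2.97%) and 9 at 1.5-fold (6.05%), and the median was -0.17 with TPM. The genes above 0 there numbered 1 of 42 with a minimum of 5 (37.4%), 17 of 54 with TPM (73.2%) and 9 of 54 with plain sums of reads (60.1%), where each percentage is the share of all genes tested under the same setting. The cause of these shifts was not tested. Taking only protein-coding genes as background gave 49.0% above 0 at 48 h and 57.9% at 24 h. The depth limits low genes such as POLD4, and the single culture per condition limits all of the comparisons.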
